A study of Rattus norvegicus with 36 samples.

Results

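In the rat nucleus accumbens, 80 of 31546 annotated genes were shifted after 15 cocaine injections spread over 5 days and lay within a narrow band around the saline level after 3 cocaine injections given on the last day. Of these, 24 were raised and 56 were lowered. The genes were selected on the measured values themselves. Counts were divided by median-of-ratios size factors, and a gene was kept when its mean over the 9 pools reached 40, when the 3 pools of repeatedly treated rats all lay above or all lay below the other 6 pools, when the log2 ratio of the mean after repeated cocaine to the mean after saline was at least 0.4 in size, and when the same ratio for 3 injections was under 0.15 in size. Because the rule used the 3 possible comparisons of the groups, the levels given here are a description of the chosen genes and no test is attached to them.

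The animals were male Sprague-Dawley rats aged 8 weeks, and each library was made from poly(A) RNA of the nucleus accumbens with a stranded TruSeq kit. Sal–Sal rats received 15 saline injections, Coc–Coc rats received 15 cocaine injections, and Sal–Coc rats received saline first (13 injections on the labels) followed by 3 cocaine injections. Cocaine was given intraperitoneally at 20 mg/kg per injection, 3 times a day, and tissue was taken 24 h after the last injection, so that the Sal–Coc and Coc–Coc groups share the timing of the last drug dose and differ in the preceding days. Each group held 3 libraries, and each library was deposited as 4 technical replicates, which were summed. The methods of the study describe each library as a pool of 2 rats, whereas the labels name 1 rat for each, and the word pool is used below. The labels also call the Sal–Coc animals saline rats by phenotype and the Coc–Coc animals both tolerant and vulnerable, and the groups here follow the injections. As bulk tissue was sequenced, fewer cells of a type and less RNA per cell cannot be told apart.

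Cocaine blocks the dopamine transporter and raises extracellular dopamine in the nucleus accumbens, the ventral part of the striatum, where most neurons are GABAergic projection neurons that carry dopamine receptors and receive glutamatergic input. Immediate early genes respond to single drug exposures within minutes to hours, whereas changes in receptor subunits, cytoskeletal proteins and chromatin regulators are more often discussed for repeated exposure. Among the selected genes that could be named, Dusp1 is an immediate early gene. Gria1 encodes a receptor subunit, Ina a cytoskeletal protein and Cecr2 a chromatin regulator. Whether genes of these kinds are more frequent here than among all genes was not tested.

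The deposited tables carry gene identifiers without symbols. Symbols were attached only to identifiers whose ratios matched a single row of the gene lists published with the data, and 14 of the 80 genes received one in this way, 5 raised and 9 lowered. All 14 therefore come from lists that the study drew from these same libraries. The other 66 genes are given by counts and ranges, and by identifier for 2 raised and 2 lowered genes. Nefm, Nts and Fgf2, whose identifiers are named with the rule and which it sets aside, received the same names from this matching, and none of these 3 met the conditions. Of 516 symbols in the lists of pathways and cell type markers drawn up for the striatum, 66 could be attached to an identifier, and in no list did the share exceed 42.9%. A check of the tissue against its markers, and any count over a pathway, is therefore void, and of the listed genes of striatal projection neurons Sp9 alone received an identifier.

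The 9 pools held between 36372166 and 42449841 counted reads. The 4 technical replicates of each pool differed by about as much as counting predicts, the chi-square statistic over its degrees of freedom being 1.00 to 1.02. A pair of libraries stood apart. Over the 13607 genes with a mean of at least 40, the first component of the deviations from the group means held 42.1% of their variance, and Sal–Sal pool 3 and Sal–Coc pool 1 carried its largest loadings, 0.53 and 0.61, with the other 7 pools between -0.33 and 0.09. The log2 ratios to Sal–Sal of the selected genes named below are also given without these libraries.

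Promoters in the RefSeq table (assembly GRCr8, 250 bases before to 50 bases after the annotated start) were found for 9 of the 14 genes with a symbol. They are shown for 3 genes whose levels are described in detail below: Dusp1, a raised gene from the immediate early genes, and Elavl2 and Ina, lowered genes that are typical of neurons. Capitals mark matches, on either strand, to TGACG (the core of the cAMP response element TGACGTCA), to the AP-1 letters TGANTCA, to CACGTG (an E-box) and to TATAAA.
Dusp1, chr10:17184603-17184902, plus strand: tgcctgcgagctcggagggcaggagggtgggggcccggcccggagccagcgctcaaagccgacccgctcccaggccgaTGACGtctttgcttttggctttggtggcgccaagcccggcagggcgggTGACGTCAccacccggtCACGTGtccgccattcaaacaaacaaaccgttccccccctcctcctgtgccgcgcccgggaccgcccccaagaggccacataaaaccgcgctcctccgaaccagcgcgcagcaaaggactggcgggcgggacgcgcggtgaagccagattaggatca
Elavl2, chr5:111202238-111202537, minus strand: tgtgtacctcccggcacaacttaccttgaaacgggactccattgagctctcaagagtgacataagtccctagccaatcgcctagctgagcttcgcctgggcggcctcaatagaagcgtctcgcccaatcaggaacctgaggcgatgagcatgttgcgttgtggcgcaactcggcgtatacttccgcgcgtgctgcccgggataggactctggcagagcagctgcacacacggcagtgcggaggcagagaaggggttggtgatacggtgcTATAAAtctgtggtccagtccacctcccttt
Ina, chr1:255837879-255838178, plus strand: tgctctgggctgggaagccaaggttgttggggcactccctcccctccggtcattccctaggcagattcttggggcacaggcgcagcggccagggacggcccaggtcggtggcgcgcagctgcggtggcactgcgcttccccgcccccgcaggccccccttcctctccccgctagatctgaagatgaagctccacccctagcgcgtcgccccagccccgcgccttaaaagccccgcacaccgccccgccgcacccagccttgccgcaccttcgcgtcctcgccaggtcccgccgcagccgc

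The Dusp1 window held the full TGACGTCA, whose first base lies at -124 from the annotated start, a further TGACG match at -172 and a CACGTG at -107. Among the 9 promoters, Dusp1 was the only one with TGACGTCA, which occurs in 1.83% of the 33469 promoters in the table. TGACG was found in 2 of the 9 (Dusp1 and B3galt2), beside 21.2% of all promoters, and CACGTG in 3 of the 9 (Dusp1, B3galt2 and Tnfrsf21), beside 6.42%. The Elavl2 window held TATAAA at 20 bases past the annotated start, a match present in 14.2% of all promoters, and the Ina window held none of the 4 motifs. GGGCGG, the core of GC boxes, was found in 8 of the 9, beside 33.1% of all promoters, and the broad E-box CANNTG, which includes CACGTG, in 6 of the 9, beside 72.1%. No match was found in the 9 windows for TGANTCA, for the STAT letters TTCNNNGAA, for the NF-kappaB motif or for the glucocorticoid response element, which occur in 7.33%, 8.87%, 0.362% and 1.00% of all promoters. The shares over all promoters were taken without a filter on expression, while the 9 are expressed genes. Whether the 9 differ from other expressed genes was not tested. Of the 14 genes, 11 were found in the RefSeq gene table, lying on 8 chromosomes, with no pair within 10 genes of each other.

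**Figure D1:**
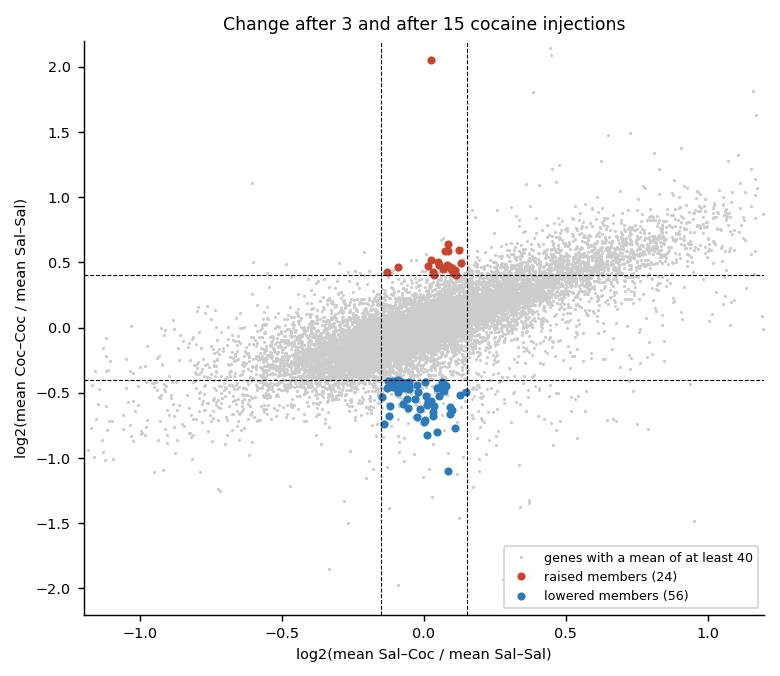
Change of each gene with a mean of at least 40 after 3 cocaine injections (horizontal axis, log2 of mean Sal–Coc over mean Sal–Sal) and after 15 injections (vertical axis, log2 of mean Coc–Coc over mean Sal–Sal). Dashed lines are the bounds of the rule, and the 24 raised and 56 lowered genes lie in the middle column, from -1.10 to 2.05 on the vertical axis. Genes inside the bounds that are grey had pools that overlapped, and genes beyond the axes are not drawn.

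Of the 13607 genes with sufficient counts, 5171 met the bound on the change after 3 injections, and in 180 of these the Coc–Coc pools lay above all others and in 318 below all others. Over all 13607 genes, the Coc–Coc pools were above the other 6 in 2.15% and below them in 3.34%. The fold condition then left the 24 raised and 56 lowered genes. A further 75 raised and 60 lowered genes met the conditions on overlap and fold and were left out for a change after 3 injections that was too large. The median log2 ratio of Coc–Coc to Sal–Sal was 0.47 in the raised genes, from 0.41 to 2.05, and -0.51 in the lowered genes, from -1.10 to -0.40, while over all genes it was -0.02. Most changes were thus modest, with medians of 1.38-fold and 0.704-fold of the saline level. At the fold bound, the 2 weakest raised genes had log2 ratios of 0.405 and 0.406, and the nearest genes outside it had 0.391 and 0.390. The 2 weakest lowered genes had -0.405 and -0.408, and the nearest outside had -0.3999 and -0.398. At the bound on the change after 3 injections, Tle1 at 0.130 and Ube2ql1 at -0.147 were among the genes closest to it on the inside, and the nearest raised and lowered genes outside it were at 0.151 and -0.152.

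Within the narrow band allowed after 3 injections, 22 of the 24 raised genes had a Sal–Coc mean above the Sal–Sal mean, with a median log2 ratio of 0.08, whereas 26 of the 56 lowered genes did so, with a median of -0.02. Over all genes with a mean of at least 40 the median was -0.03. The Sal–Sal mean enters both ratios of the rule, so the selection itself can shift these values and no early change is read from them. The median log2 ratio of Coc–Coc to Sal–Coc was 0.40 in the raised and -0.52 in the lowered genes. In the quasi-likelihood test of edgeR, adjusted by Benjamini-Hochberg over 15641 genes, Coc–Coc was higher than Sal–Sal in 1115 genes (7.13% of those tested) and lower in 587 (3.75%), and 9 raised and 21 lowered members were among them. Sal–Coc was higher than Sal–Sal in 1655 genes (10.6%) and lower in 917 (5.86%), and no member was among these. Since the rule used these contrasts, nothing is read from the counts of members. Between Coc–Coc and Sal–Coc, edgeR called 0 genes in either direction (0% of those tested), with 1453 genes at an unadjusted p under 0.05, limma-voom called 0 and DESeq2 called 151. Each member's difference from the Sal–Coc group is therefore a difference of values that edgeR did not call. The study's own DESeq test on the same libraries listed 27 genes for this comparison, and the lowered members Elavl2 and LOC100912852 were among them. The 1702 calls between Coc–Coc and Sal–Sal also rested on single libraries, since 0 were left without Coc–Coc pool 3 (3533 genes at an unadjusted p under 0.05), 174 without Coc–Coc pool 2 and 292 without Sal–Sal pool 1. The adjusted p-values given below for this comparison share that dependence.

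**Figure D2:**
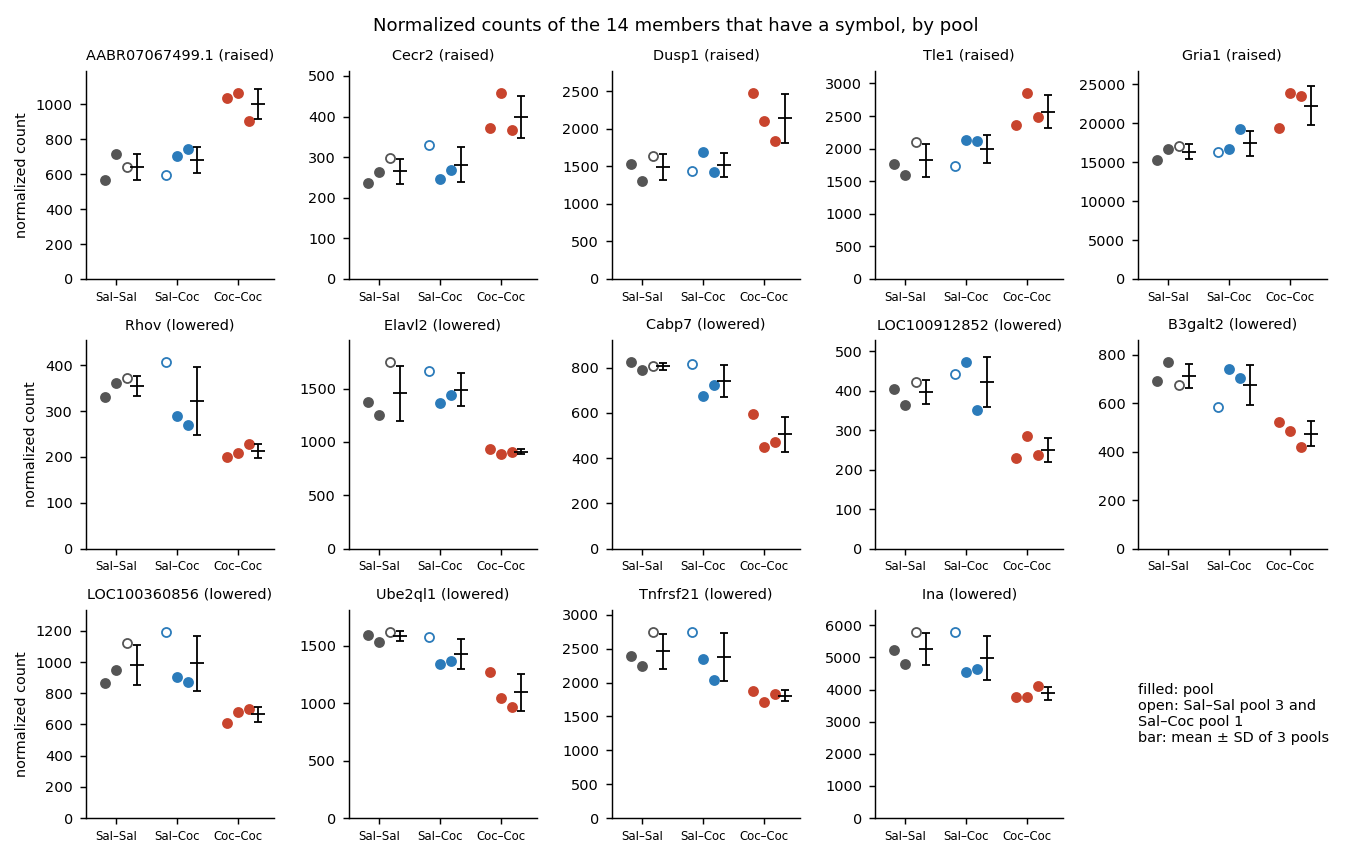
Normalized counts (vertical axes, each from 0) of the 14 genes with a symbol in the 9 pools, with the mean ± SD of the 3 pools of each group as black bars and the libraries that stand apart as open circles. The red Coc–Coc points lie above all others in the first row and below all others in the other rows, as the rule required, and the distance to the nearest other pool ranges from 0.747% in Gria1 to 33.6% in Elavl2.

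Among the raised genes with a symbol, Gria1 and Dusp1 are in the lists of pathways. Gria1 encodes the GluA1 subunit of AMPA receptors, which carry fast excitatory transmission onto accumbens neurons. Its normalized counts were 15237, 16680.1 and 17072 in Sal–Sal, 16318, 16746 and 19291 in Sal–Coc and 19435, 23881 and 23480.0 in Coc–Coc. The Coc–Coc mean was 22265 ± 2459 (SD, n = 3) against 16329.6 ± 966 in Sal–Sal and 17452 ± 1607 in Sal–Coc, a log2 ratio to Sal–Sal of 0.45 after repeated cocaine and 0.10 after 3 injections. The separation from Sal–Coc was thin: Coc–Coc pool 1 exceeded Sal–Coc pool 3 by 0.747%, and the other 2 Coc–Coc pools lay well clear of every other pool. Counting error is small at this depth, as the log2 ratio computed from each of the 4 technical replicates lay between 0.44 and 0.47.

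Of the 18 ionotropic glutamate receptor genes in the list, 4 could be located, and Gria1 was the only member among them. The other 3 had different patterns. Grin1, the obligatory subunit of NMDA receptors, was higher than in Sal–Sal in both cocaine groups by edgeR with Benjamini-Hochberg adjustment (log2 fold change 0.46, SE 0.09, adjusted p = 0.0111 in Sal–Coc and log2 fold change 0.35, SE 0.09, adjusted p = 0.0407 in Coc–Coc). Grik5, a kainate receptor subunit, was likewise higher in both (log2 fold change 0.67, SE 0.11, adjusted p = 0.00688 in Sal–Coc and log2 fold change 0.46, SE 0.11, adjusted p = 0.0369 in Coc–Coc, edgeR). Grin2b, a further NMDA receptor subunit, was lower in Sal–Coc by edgeR (log2 fold change -0.69, SE 0.15, adjusted p = 0.0149), and in Coc–Coc its difference from Sal–Sal was not called (log2 fold change 0.01, SE 0.14, adjusted p = 0.975). These 3 were placed in the list by their family and have identifiers because the study's lists held them.

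Dusp1 encodes a phosphatase that inactivates MAP kinases and is itself induced as an immediate early gene. Its normalized counts were 1535, 1308 and 1634 in Sal–Sal, 1439, 1696 and 1419 in Sal–Coc and 2478, 2105 and 1831 in Coc–Coc. All 3 Coc–Coc pools were above the highest other pool, Sal–Coc pool 2, by 8.01% or more, and the Sal–Sal and Sal–Coc pools overlapped throughout. The Coc–Coc mean of 2138 ± 324 (SD, n = 3) stood against 1492 ± 168 in Sal–Sal and 1518 ± 154 in Sal–Coc, with log2 ratios to Sal–Sal of 0.52 and 0.02.

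The other 3 immediate early genes that could be located, of 26 in the list, had Coc–Coc means below the Sal–Sal mean. Jund, a subunit of the AP-1 transcription factor, was lower in Sal–Coc (log2 fold change -1.02, SE 0.16, adjusted p = 0.0056, edgeR) and in Coc–Coc (log2 fold change -0.86, SE 0.16, adjusted p = 0.0186, edgeR). Jun, a subunit of the same factor, was lower in Sal–Coc by edgeR (log2 fold change -0.63, SE 0.15, adjusted p = 0.0236), while its difference in Coc–Coc was not called (log2 fold change -0.29, SE 0.15, adjusted p = 0.222). For Egr4, a zinc finger transcription factor, the edgeR values were log2 fold change -1.47, SE 0.40, adjusted p = 0.0368 in Sal–Coc and log2 fold change -1.08, SE 0.40, adjusted p = 0.107 in Coc–Coc. Dusp1 was thus the only one of the 4 located genes with a Coc–Coc mean above that of Sal–Sal, which the rule required of it. All 4 have identifiers because the study's lists held them, so they are no independent sample of the immediate early genes.

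The other 3 raised genes with a symbol included chromatin and transcription regulators. Cecr2 encodes a bromodomain protein of a chromatin remodelling complex. Its normalized counts were 237, 263 and 298 in Sal–Sal, 330.0, 245 and 269 in Sal–Coc and 371, 458 and 367 in Coc–Coc, so that the Coc–Coc pools lay above Sal–Coc pool 1, the highest other pool, by at least 11.2%. The log2 ratio to Sal–Sal was 0.59 after repeated cocaine and 0.08 after 3 injections. Tle1 encodes a co-repressor of the Groucho family, recruited by several DNA-binding factors. It had 1765, 1602 and 2095 in Sal–Sal, 1739, 2127 and 2112 in Sal–Coc and 2361, 2854 and 2489 in Coc–Coc, with a log2 ratio of 0.50 in Coc–Coc. In Sal–Coc, pools 2 and 3 were close to Sal–Sal pool 3 and above the other Sal–Sal pools, and the ratio of 0.13 was near the bound of the rule. The gene listed as AABR07067499.1, a clone-based name without a described product, had 566, 714 and 642 in Sal–Sal, 595, 701 and 742 in Sal–Coc and 1034, 1064 and 903 in Coc–Coc. Its Coc–Coc pools cleared the others by 21.8% and its log2 ratio to Sal–Sal was 0.64, the largest among the raised genes with a symbol.

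The raised gene with the largest ratio of all had no symbol. This gene, ENSRNOG00000047098, had normalized counts of 27.8, 12.6 and 34.5 in Sal–Sal, 17.4, 41.4 and 17.3 in Sal–Coc and 72.1, 78.9 and 159 in Coc–Coc, with a log2 ratio to Sal–Sal of 2.05. Its levels were low, with 13 to 169 reads in a pool, and they varied widely inside each group, with Coc–Coc pool 3 well above the other Coc–Coc pools. Hba-a2, an alpha globin gene of red blood cells and the only one of 7 red cell markers that could be located, had 38.3, 11.6 and 24.2 in Sal–Sal, 21.1, 48.7 and 31.3 in Sal–Coc and 117, 59.9 and 139 in Coc–Coc and was higher in Coc–Coc than in Sal–Sal by edgeR with Benjamini-Hochberg adjustment (log2 fold change 2.11, SE 0.47, adjusted p = 0.0276). Both genes were highest in Coc–Coc pool 3, and in the 6 other pools both were highest in Sal–Coc pool 2 and lowest in Sal–Sal pool 2. Their order was opposite between Coc–Coc pools 1 and 2, between Sal–Sal pools 1 and 3 and between Sal–Coc pools 1 and 3. The part of blood in the level of ENSRNOG00000047098 was not tested. Without the libraries that stand apart, the log2 ratio of ENSRNOG00000047098 to Sal–Sal was 2.36 in Coc–Coc and went from 0.02 to 0.54 in Sal–Coc, outside the bound of 0.15. A second raised gene without a symbol, ENSRNOG00000038225, had 182, 216 and 225 in Sal–Sal, 178, 238 and 240.0 in Sal–Coc and 303, 316 and 321 in Coc–Coc, a gap of 26.3% and a log2 ratio of 0.59 in Coc–Coc and 0.07 in Sal–Coc. Sal–Coc pools 2 and 3 were above every Sal–Sal pool, and without the libraries that stand apart the ratio was 0.65 in Coc–Coc and 0.26 in Sal–Coc, outside the bound of 0.15. Over the 19 raised genes without a symbol, the log2 ratio ranged from 0.41 to 2.05 with a median of 0.46.

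Among the lowered genes, Elavl2 showed the widest separation from the other pools. Elavl2 encodes a neuronal RNA-binding protein of the Hu family, which binds AU-rich elements and regulates splicing and stability of transcripts. Its normalized counts were 1376, 1249.6 and 1745 in Sal–Sal, 1668, 1365 and 1439 in Sal–Coc and 935, 884 and 906 in Coc–Coc. The Coc–Coc pools were tightly grouped, with a mean of 909 ± 25.5 (SD, n = 3), and the lowest other pool, Sal–Sal pool 2, exceeded the highest of them by 33.6%. The log2 ratio to Sal–Sal was -0.68 after repeated cocaine and 0.03 after 3 injections. The highest pools were Sal–Sal pool 3 and Sal–Coc pool 1, the libraries that stand apart, and without them the ratio was -0.53 after repeated cocaine and 0.09 after 3 injections.

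Ina encodes alpha-internexin, an intermediate filament protein that assembles with the neurofilament subunits in axons. Its normalized counts were 5217, 4793 and 5789.9 in Sal–Sal, 5779, 4535 and 4647 in Sal–Coc and 3771, 3770.0 and 4115 in Coc–Coc. Every Coc–Coc pool was below the lowest other pool, Sal–Coc pool 2, with a gap of 10.2%, and the highest values were again in Sal–Sal pool 3 and Sal–Coc pool 1. The log2 ratio to Sal–Sal was -0.44 after repeated cocaine and -0.08 after 3 injections, and -0.37 and -0.12 without those libraries. Of the 10 genes in the list of neurofilaments and axonal growth proteins, 3 could be located, and the other 2 are neurofilament subunits that missed the bound on the change after 3 injections. Nefl, the light subunit, had 15866, 14894 and 13038 in Sal–Sal, 11054, 13646 and 14291 in Sal–Coc and 10989.7, 9886 and 10702 in Coc–Coc, and by edgeR it was lower in Coc–Coc than in Sal–Sal (log2 fold change -0.47, SE 0.11, adjusted p = 0.0336), while in Sal–Coc the difference was not called (log2 fold change -0.16, SE 0.11, adjusted p = 0.347). Nefm, the medium subunit, had 3603, 3939 and 3849 in Sal–Sal, 4253, 4070.1 and 4483 in Sal–Coc and 2855, 2030.1 and 2923 in Coc–Coc, was lower in Coc–Coc by edgeR (log2 fold change -0.54, SE 0.13, adjusted p = 0.0295) and was not called in Sal–Coc (log2 fold change 0.17, SE 0.13, adjusted p = 0.357). The 3 genes had their 3 lowest pools in Coc–Coc, which the rule required of Ina and which held in 3.34% of all genes with a mean of at least 40. All 3 have identifiers because the study's lists held them, so they are no independent sample of the family.

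Several lowered genes take part in signalling at the membrane. Rhov encodes a small GTPase. Its normalized counts were 332, 361 and 372 in Sal–Sal, 406, 289.8 and 269 in Sal–Coc and 201, 208 and 229 in Coc–Coc, with a log2 ratio of -0.74 in Coc–Coc and -0.14 in Sal–Coc. Sal–Coc pools 2 and 3 were below every Sal–Sal pool, and Sal–Coc pool 1 was the highest of all, so that without the libraries that stand apart the ratio was -0.70 in Coc–Coc and -0.31 in Sal–Coc, the latter outside the bound of the rule. Cabp7 encodes a neuronal calcium-binding protein of the calmodulin superfamily. It had 822, 789 and 805 in Sal–Sal, 816, 676 and 724 in Sal–Coc and 594, 449 and 472 in Coc–Coc, with log2 ratios of -0.67 and -0.12, and the same arrangement of Sal–Coc pools 2 and 3 below the Sal–Sal pools, the ratios being -0.67 in Coc–Coc and -0.20 in Sal–Coc, outside the bound, without those libraries. Tnfrsf21 encodes a death-domain receptor of the tumour necrosis factor receptor superfamily. It had 2397, 2247 and 2746 in Sal–Sal, 2745, 2349.7 and 2038 in Sal–Coc and 1872, 1719 and 1834 in Coc–Coc, with the highest values in the libraries that stand apart, and its log2 ratios of -0.45 in Coc–Coc and -0.05 in Sal–Coc were -0.36 and -0.08 without them.

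B3galt2 and Ube2ql1 encode enzymes of protein modification. B3galt2, a galactosyltransferase of glycan synthesis, had 691, 768 and 673 in Sal–Sal, 584, 740.1 and 703 in Sal–Coc and 520.4, 485 and 418 in Coc–Coc. In this gene Sal–Coc pool 1 was the lowest pool outside Coc–Coc, and the log2 ratios in Coc–Coc and Sal–Coc were -0.58 and -0.07 with all pools and -0.62 and -0.02 without the libraries that stand apart. Ube2ql1, related to the E2 ubiquitin-conjugating enzymes, had 1589, 1532 and 1617 in Sal–Sal, 1574, 1337 and 1367 in Sal–Coc and 1274, 1041 and 968 in Coc–Coc. The gap between Sal–Coc pool 2 and Coc–Coc pool 1 was 4.98%, and the log2 ratio to Sal–Sal went from -0.15 in Sal–Coc, at the bound of the rule, to -0.53 in Coc–Coc. Sal–Coc pools 2 and 3 lay below every Sal–Sal pool, and without the libraries that stand apart the ratio was -0.21 in Sal–Coc, outside the bound, and -0.51 in Coc–Coc.

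The last pair of lowered genes with a symbol carry provisional names. LOC100912852, annotated as similar to the scaffold protein disks large homolog, had 404, 362 and 422 in Sal–Sal, 443, 471 and 350.2 in Sal–Coc and 229.9, 284 and 236 in Coc–Coc, and its Coc–Coc pools lay below the others with a gap of 23.4% and a log2 ratio of -0.66. In Sal–Coc the ratio was 0.09, and without the libraries that stand apart the ratios were -0.62 in Coc–Coc and 0.10 in Sal–Coc. As reads that map to several places were removed by the authors, its level is uncertain where it shares sequence with the gene it resembles. LOC100360856 had 869, 952 and 1124 in Sal–Sal, 1193, 906 and 875 in Sal–Coc and 607, 683 and 702 in Coc–Coc, with a gap of 23.8% and log2 ratios of -0.56 in Coc–Coc and 0.01 in Sal–Coc, or -0.46 and -0.03 without the libraries that stand apart.

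The lowered gene with the largest ratio, ENSRNOG00000042246, had no symbol and normalized counts of 59.1, 86.9 and 108 in Sal–Sal, 174, 48.7 and 46.5 in Sal–Coc and 35.5, 39.0 and 44.3 in Coc–Coc. Its log2 ratio was -1.10 in Coc–Coc, but the Sal–Coc mean of 89.8 ± 73.1 (SD, n = 3) joined 1 pool at 174 with pools at 48.7 and 46.5, close to the Coc–Coc level. Without the libraries that stand apart, the ratio was -0.88 in Coc–Coc and -0.62 in Sal–Coc, so that both groups then had a mean below that of Sal–Sal. A second gene, ENSRNOG00000048169, had 132, 151 and 219 in Sal–Sal, 223, 122 and 161 in Sal–Coc and 118, 76.2 and 88.6 in Coc–Coc, with ratios of -0.83 in Coc–Coc and 0.01 in Sal–Coc, or -0.58 and 0.00 without those libraries. Over the 47 lowered genes without a symbol, the ratio ranged from -1.10 to -0.40 with a median of -0.49.

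**Figure D3:**
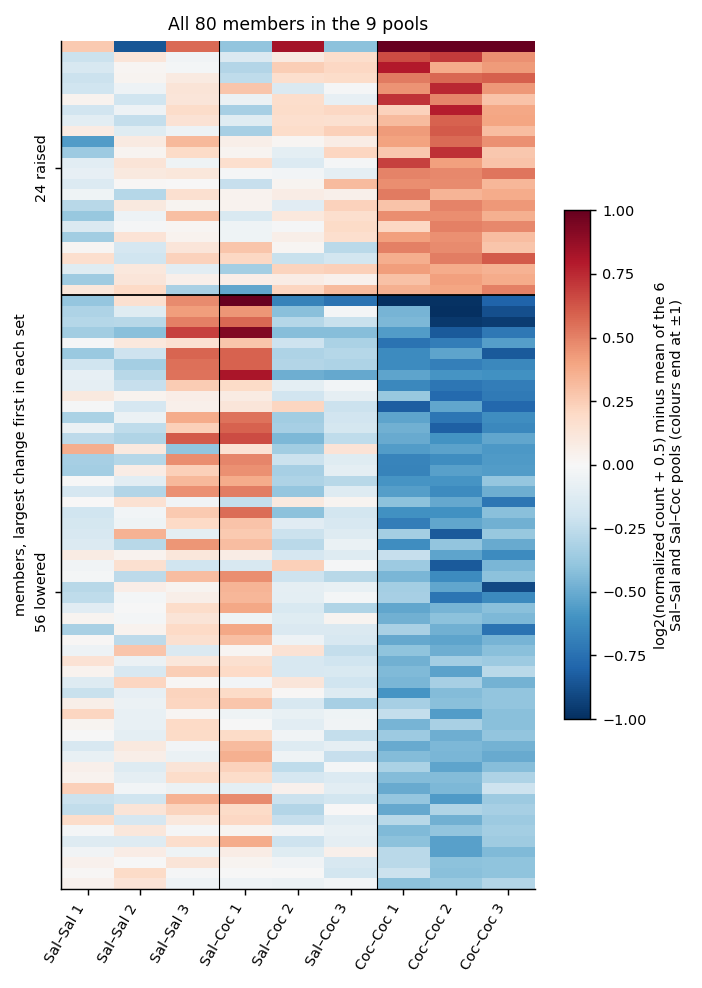
The 24 raised and 56 lowered genes (rows, largest change first in each set) in the 9 pools (columns), coloured by log2 of the normalized count plus 0.5 minus its mean over the 6 Sal–Sal and Sal–Coc pools. The Coc–Coc columns are of 1 colour in each set by the rule, and in the lowered set Sal–Sal 3 and Sal–Coc 1 form a pair of darker red columns among the other control columns.

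Within groups, the levels of the lowered genes were correlated between pools. The median pairwise Pearson r of their log2 deviations from the group means over the 9 pools was 0.51 in the lowered and 0.20 in the raised genes, -0.05 between a raised and a lowered gene, and near 0 (-0.0009) over all pairs of genes with a mean of at least 40. These are correlations across 9 shared libraries and are given as a description. The rule can favour lowered genes that are high in 1 Sal–Sal and 1 Sal–Coc pool alike. The selection itself can therefore raise the correlation and the first component of the lowered genes. In the lowered genes the first component held 78.0% of the variance of the deviations, with loadings of 0.68 for Sal–Coc pool 1 and 0.45 for Sal–Sal pool 3. Without these libraries, the median r was 0.03 in the lowered genes and 0.20 in the raised genes.

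The libraries that stand apart were the highest pools of all 9 in 33 of the 56 lowered genes (58.9%), beside 8.57% of all genes with a mean of at least 40. In the lowered genes the rule keeps the Coc–Coc pools below all others, which raises this share by itself. They averaged at least 1.5 times the other 4 control pools in 14 lowered genes (25%), beside 3.84% of all genes. The median log2 ratio of their mean to that of the other 4 control pools was 0.31 in the lowered genes, 0.04 in the raised genes and -0.01 over all genes. One of these libraries is in the Sal–Sal group and 1 in the Sal–Coc group, so each of these group means includes 1 of them. What sets them apart was not tested, since too few cell type markers could be located.

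**Figure D4:**
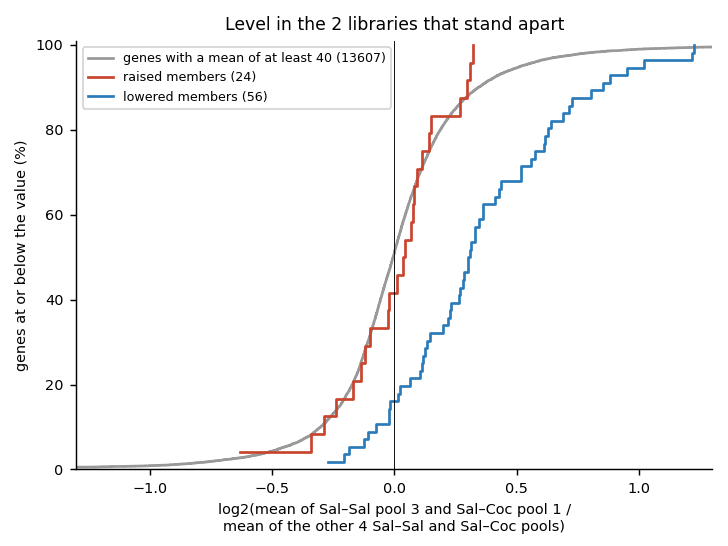
Cumulative share of genes (vertical axis, %) by the log2 ratio of the mean of Sal–Sal pool 3 and Sal–Coc pool 1 to the mean of the other 4 Sal–Sal and Sal–Coc pools (horizontal axis). The curve of the 56 lowered genes lies to the right, with a median of 0.31, while that of the 24 raised genes, median 0.04, runs near that of all 13607 genes, median -0.01.

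With those libraries left out, the log2 ratio of Coc–Coc to Sal–Sal was still at least 0.4 in size in 22 of the 24 raised and 33 of the 56 lowered genes, with medians of 0.54 and -0.44. The bound on the change after 3 injections was then met by 7 raised and 41 lowered genes, and both conditions by 6 raised and 21 lowered genes. Among the raised genes with a symbol, Tle1 then had a log2 ratio of 0.33 in Sal–Coc, Gria1 0.18, AABR07067499.1 0.17, Dusp1 0.13 and Cecr2 0.04, so that Dusp1 and Cecr2 stayed inside the bound of 0.15. In Coc–Coc their ratios were 0.61 for Tle1, 0.48 for Gria1, 0.64 for AABR07067499.1, 0.59 for Dusp1 and 0.68 for Cecr2. Of the 33 lowered genes whose 2 highest pools were these libraries, 8 met both conditions without them, and of the other 23 lowered genes, 13 did. The split was made on the levels in these same libraries. Leaving them out must lower the Sal–Sal mean of the 33 genes, so nothing is read from this difference.

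**Figure D5:**
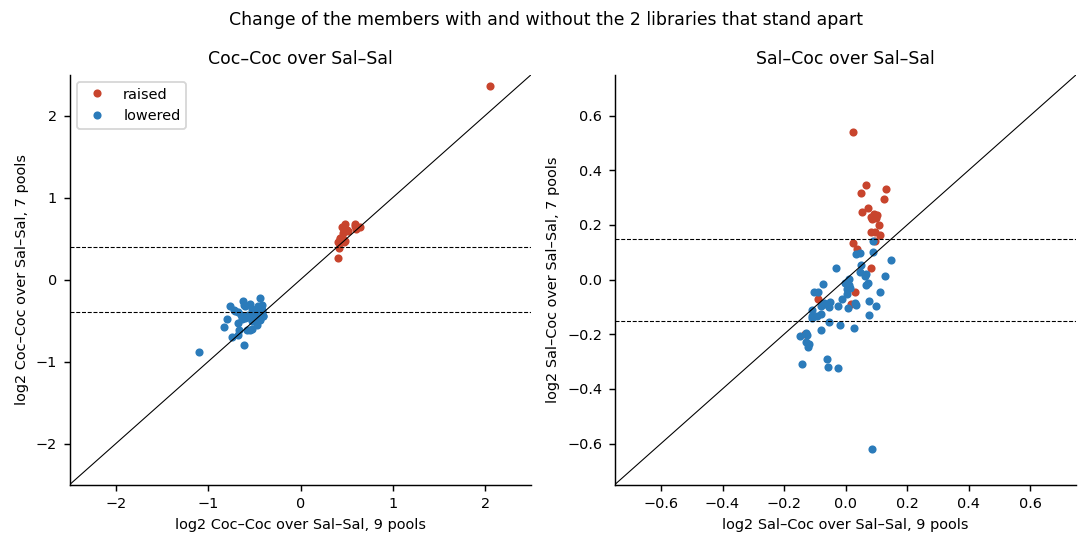
Log2 ratio of the 80 genes with all 9 pools (horizontal axes) and with the 7 pools left when Sal–Sal pool 3 and Sal–Coc pool 1 are omitted (vertical axes), for Coc–Coc over Sal–Sal on the left and Sal–Coc over Sal–Sal on the right. Dashed lines are the bounds of 0.4 and 0.15 on the 7-pool values, met by 22 raised and 33 lowered genes on the left and by 7 raised and 41 lowered genes on the right.

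Membership also turned on small distances. The nearest Coc–Coc pool and the nearest other pool were less than 5% apart in 9 raised and 13 lowered genes, and more than 20% apart in 4 raised and 7 lowered genes, with medians of 8.16% and 10.2%. Within groups, the pools varied by a median coefficient of variation of 12.8% in the raised and 14.2% in the lowered genes, beside 5.95% and 3.69% expected from counting alone. When the rule was applied to 2 of the 4 technical replicates at a time, replicates a and b gave 24 raised and 60 lowered genes, of which 16 and 36 were shared with the full set, and replicates c and d gave 31 and 60, sharing 16 and 41. Leaving out 1 pool at a time, 0 raised and 3 lowered genes stayed in all 9 resulting lists, among them B3galt2 and LOC100360856, and 12 raised and 23 lowered genes stayed in at least 7. The 14 genes with a symbol stayed in 7 to 9 of the 9 lists. They have symbols because the study listed them from these same libraries, so no stability is read from this.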

How the data were processed

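Gene-level counts of 36 technical replicates (9 pools of nucleus accumbens) were used. The authors made the deposited counts with bcl2fastq 2.17.1.14, STAR and HTSeq 0.5.3 on the Ensembl release 84 rat genome, after dropping reads of up to 40 bases or of mean quality up to 30 and reads with several alignments. From there, the 4 technical replicates of a pool were summed, and the genes were chosen by the rule given above, on counts divided by median-of-ratios size factors. Calls over all genes came from edgeR 4.0.16 (quasi-likelihood test, TMM, filterByExpr by group, all 9 pools, adjusted p under 0.05), with DESeq2 1.42.0 and limma 3.58.1 (voom) as alternatives, each tested on simulated counts. Standard errors were the fitted log2 fold change over the root of F. Symbols were attached where a published ratio matched a single identifier to 6 digits, and at most 3.54% of ratios matched after a shift of 0.1%. The members and the lists of genes were chosen with earlier results of these data known. Genes were named by size of change (20 each way, where a symbol was found), list membership and nearness to the bounds. Depth was 36372166 to 42449841 counts per pool. The p-values weigh differences between group means against the variation between pools, not between single rats.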

Additional observations from a re-analysis of the deposited data

How the results depend on the processing

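The choice of genes depended on its bounds. The number of raised genes, 24, became 13 with total counts as size factors, 38 with no minimum mean, 13 with a minimum mean of 200, 63 and 2 with fold bounds of 0.3 and 0.6, 58 with a bound of 0.3 on the change after 3 injections and 53 when pools could overlap. The number of lowered genes, 56, became 114 and 18 with the fold bounds, 104 with the wider bound and 156 when pools could overlap. The genes themselves also changed where their number changed less. Of the 24 raised and 56 lowered genes, 9 and 32 were kept with total counts as size factors and 11 and 29 with group medians. With upper-quartile size factors 19 and 51 were kept, and with TMM size factors 24 and 54. Leaving out 1 pool at a time gave 19 to 56 raised genes (46 without Sal–Coc pool 3, 56 without Coc–Coc pool 1 and 44 without Coc–Coc pool 3) and 29 to 112 lowered genes (29 without Sal–Sal pool 3, 37 without Sal–Coc pool 1, 112 without Coc–Coc pool 1 and 92 without Coc–Coc pool 3). An alternative chosen after seeing the data, without both libraries that stand apart, gave 28 raised and 51 lowered genes, of which 6 and 21 were shared with the full set. The 18 alternatives moved the log2 ratio of Coc–Coc to Sal–Sal of each of the 14 genes with a symbol by less than its within-group SD. Leaving out 1 of 3 pools can hardly move a group mean by more than that, so no stability is read from it. The ratio of Sal–Coc to Sal–Sal was not followed in this way, and that of Tle1 went from 0.13 to 0.33 without both libraries.

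Between Coc–Coc and Sal–Sal, edgeR called 1702 genes, DESeq2 2811, and edgeR without both libraries 2948. Leaving out 1 pool at a time gave 0 to 2131 calls (292 without Sal–Sal pool 1, 984 without Sal–Sal pool 2, 1052 without Sal–Coc pool 2, 837, 174 and 0 without Coc–Coc pools 1, 2 and 3). Between Sal–Coc and Sal–Sal, 2572 genes were called, 1445 with only the 6 pools compared, and 982 to 2835 when 1 pool was left out (982 without Sal–Sal pool 1, 1203 and 1201 without Sal–Coc pools 2 and 3). Between Coc–Coc and Sal–Coc, edgeR called 0, 5 with no filter on low counts, 0 to 1 when 1 pool was left out, and DESeq2 called 151. The cause of these differences was not tested, except that leaving out a pool leaves fewer samples. A replicate block by pool number left 1126 genes called between Coc–Coc and Sal–Sal. The numbers do not pair the samples, since same-numbered pools are different rats and the r between their deviations around the group means averaged -0.03 over 9 pairs (-0.36 to 0.25). Counting alone gave a coefficient of variation of up to 15.3% in the raised and 11.7% in the lowered genes.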
